A study of Homo sapiens with 6 samples.

Results

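The genes examined here code for the coat of caveolae, the small flask-shaped pits of the plasma membrane, and for the flotillins. They are the caveolins CAV1, CAV2 and CAV3, the cavins CAVIN1, CAVIN2 and CAVIN3, the neck proteins EHD2 and PACSIN2, and FLOT1 and FLOT2. The members were chosen by symbol and make up 10 of the 58676 genes listed. A level of at least 1 TPM in at least 3 of the 6 libraries was found for 7 of the 10, which were tested among the 17408 genes that met this condition. Of the remaining members, CAV3 and FLOT1 were listed at 0 in all 6 libraries and CAVIN3 had 1 read in 1 library. In TPM, reads are corrected for gene length and every library sums to 1000000, so that levels of different genes can be compared.

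RNA was sequenced from 2D cultures of A549, a long-established line of human lung adenocarcinoma cells. A549 Rec (3 libraries) had been transduced with a retroviral pMXs-puro vector that carries a human recoverin cDNA with a myc tag and selected with puromycin, and A549 MOCK (3 libraries) had received the empty vector. Every library thus came from vector-carrying A549 cells, and the labels give 6 days of culture for all 6. Whether the selected cells were cloned is not given in the sources used here. The study asked how recoverin, a calcium-binding protein of photoreceptors that appears in some cancer cells, alters gene expression in A549, and caveolin-1 is among the proteins it relates to recoverin. RCVRN was at 0 in each A549 MOCK library and between 322.2 and 339.1 TPM in A549 Rec. Reads recovered from the TPM ranged from 15183490 to 18572167 per library. The mitochondrially encoded share of TPM was 13.3 to 17.3% in replicates 1 and 2, and 34.5% and 26.9% in A549 MOCK and A549 Rec replicate 3, so that both replicate 3 libraries stood apart. Nothing in the labels says that the replicates were separate cultures, and the p-values then measure the spread between these samples, which may be technical. Of the lung epithelial markers, KRT8, KRT18, KRT7 and CDH1 had mean levels of 2504, 2941, 607.3 and 137.1 TPM. EPCAM and NAPSA were low, with means of 2.08 and 2.97 TPM. SFTPB, SFTPC and KRT19 stayed below 1 TPM in every library, and 6 of the 9 markers were tested.

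Caveolins are hairpin proteins that insert into the inner leaflet of the membrane and assemble into oligomers. Caveolin-1, usually together with caveolin-2, forms the core of the coat in non-muscle cells, while caveolin-3 is the muscle form. Cavins are cytoplasmic coat proteins, of which CAVIN1 is required for caveola formation. EHD2 is an ATPase at the neck of caveolae that keeps them at the surface, and PACSIN2 is an F-BAR protein that bends membrane. Flotillins form a separate membrane scaffold and share the SPFH domain with stomatin and the prohibitins. Caveolae are abundant in endothelial cells, adipocytes, muscle, fibroblasts and type I alveolar epithelium.

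CAV2 and CAV1 lie next to each other on chromosome 7 of GRCh38 and on the same strand (116287380 to 116508541 and 116524785 to 116561184), with 16243 bases between them. The sequences before the transcript starts that RefSeq gives for GRCh38.p14 were available for 8 of the 10 members, in 16 windows of 250 bases. Those below are shown for the expressed CAV1, CAV2 and PACSIN2 and for CAV3, which was listed at 0, and were cut to the part outside GENCODE v44 exons. They come from chr7:116526112-116526276 (plus strand, before an internal CAV1 start), chr7:116499488-116499737 (plus strand, before a RefSeq CAV2 start that lies inside the longer CAV2 span of the deposited table), chr22:43015150-43015399 (minus strand) and chr3:8733552-8733801 (plus strand). Capitals mark GGGCGG (GC box) and CCAAT on either strand, so that CCGCCC and ATTGG are marked too.
CAV1: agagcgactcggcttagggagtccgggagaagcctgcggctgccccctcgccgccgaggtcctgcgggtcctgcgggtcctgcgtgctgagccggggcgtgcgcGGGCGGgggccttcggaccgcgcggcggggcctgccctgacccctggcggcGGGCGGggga
CAV2: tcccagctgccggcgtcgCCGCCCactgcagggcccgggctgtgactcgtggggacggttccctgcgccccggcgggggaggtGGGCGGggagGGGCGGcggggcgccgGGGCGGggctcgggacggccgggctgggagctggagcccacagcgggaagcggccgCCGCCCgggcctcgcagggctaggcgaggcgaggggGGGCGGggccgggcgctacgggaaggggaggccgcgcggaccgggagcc
PACSIN2: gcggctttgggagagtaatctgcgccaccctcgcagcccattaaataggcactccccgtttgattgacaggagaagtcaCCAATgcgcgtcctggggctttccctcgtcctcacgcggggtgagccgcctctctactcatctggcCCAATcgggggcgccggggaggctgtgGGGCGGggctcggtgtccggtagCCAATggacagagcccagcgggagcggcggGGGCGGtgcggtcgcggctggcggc
CAV3: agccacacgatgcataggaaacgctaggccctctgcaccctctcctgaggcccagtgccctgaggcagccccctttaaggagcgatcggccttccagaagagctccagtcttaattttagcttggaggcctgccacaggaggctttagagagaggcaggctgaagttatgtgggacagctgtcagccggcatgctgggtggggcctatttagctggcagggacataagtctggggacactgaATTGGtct
Of the windows shown, that of CAV2 held 6 GC boxes, that of CAV1 2, that of PACSIN2 2 GC boxes and 3 CCAAT motifs, and that of CAV3 no GC box and 1 CCAAT. Windows not shown differed, with 3 GC boxes in each for CAV1 and CAV2, and no GC box or CCAAT for PACSIN2. Over all 16 member windows, 9 held GGGCGG, 2 held CCAAT and 1 held TGANTCA, beside 42.64%, 32.01% and 6.57% of the 35116 windows of all genes. Windows of 1 gene can overlap. No member window held TATAAA or CACGTG, which were in 10.72% and 6.34% of all windows. A match describes the letters in the window and does not show that a factor binds there.

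The 7 measured members spanned a wide range of levels, from FLOT2 at 158.7 TPM (mean of 6 libraries) to CAVIN2 at 9.14 TPM. Among the caveola coat genes, CAVIN1 was the most abundant (143.5 TPM), followed by EHD2 (116.8 TPM), CAV1 (74.4 TPM), PACSIN2 (52.4 TPM), CAV2 (26.2 TPM) and CAVIN2. This order was the same in each of the 6 libraries. As the pairs of neighbours were taken from this order, it is given without a test. The closest neighbours were FLOT2 and CAVIN1, 0.17 ± 0.17 apart on the log2 scale (SD, n = 6), and CAV2 and CAVIN2 were the farthest apart, at 1.42 ± 0.05. In rank among the genes above 0, CAVIN1 stood at percentiles 95.23 to 96.75 over the 6 libraries, CAV1 at 90.35 to 92.56 and CAVIN2 at 56.48 to 59.39.

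CAV1 (ENSG00000105974) had 82.8, 83.0 and 57.1 TPM in replicates 1, 2 and 3 of A549 MOCK, against 79.5, 85.4 and 58.8 TPM in those of A549 Rec. Its partner CAV2 (ENSG00000105971) had 30.3, 26.9 and 20.3 TPM in A549 MOCK and 26.9, 29.6 and 23.2 TPM in A549 Rec, in the same order of replicates. Both caveolins were lowest in replicate 3 of each group, and the groups overlapped. The ratio of CAV1 to CAV2 within a library was 2.83 ± 0.19 (SD, n = 6). These values rest on 9602 reads of CAV1 and 5740 of CAV2 summed over the 6 libraries.

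CAVIN1 (ENSG00000177469, chromosome 17, 42402452 to 42423517), whose product is also known as PTRF, had 164.7, 166.7 and 92.5 TPM in A549 MOCK and 155.4, 169.5 and 111.8 TPM in A549 Rec. CAVIN2 (ENSG00000168497, chromosome 2, 191834302 to 191847255), also known as SDPR, had 10.2, 9.81 and 7.34 TPM in A549 MOCK and 9.18, 10.3 and 8.05 TPM in A549 Rec. Again replicate 3 was the lowest of each group, and the groups overlapped. The ratio of CAVIN1 to CAVIN2 ranged from 12.6 in A549 MOCK replicate 3 to 17.0 in A549 MOCK replicate 2. CAVIN3 (ENSG00000170955, chromosome 11, 6318946 to 6320647) had 1 read, or 0.107 TPM, in A549 MOCK replicate 3 and none in the other 5 libraries. At its recovered length of 1656 bases, 3 reads would equal 0.310 to 0.368 TPM in these libraries, so that a level under this could be missed at this depth. Of 35 protein-coding genes within 500 kb of CAVIN3, 13 (37.1%) were at 0 in all 6 libraries, beside 17.97% of the 19922 protein-coding genes listed. A mean of at least 10 TPM was reached by 11 of the 35, the highest at 92.4 TPM, and by 8103 of the 19922.

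EHD2 (ENSG00000024422, chromosome 19, 47713343 to 47743134) had 127.2, 138.4 and 70.3 TPM in A549 MOCK and 131.9, 141.8 and 91.4 TPM in A549 Rec. PACSIN2 (ENSG00000100266, chromosome 22, 42835412 to 43015145) had 57.0, 53.3 and 44.1 TPM in A549 MOCK and 55.4, 55.5 and 49.4 TPM in A549 Rec. EHD2 varied most of the 7 members over the 6 libraries, with a coefficient of variation of 24.9%, and PACSIN2 least, with 9.31%. The lowest libraries were again those of replicate 3. PACSIN2 overlaps ARFGAP3 (31.4 TPM) on the same strand, and how the counting treated shared reads is not given in the sources used here.

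FLOT2 (ENSG00000132589, chromosome 17, 28879335 to 28897679) had 176.0, 173.6 and 114.9 TPM in A549 MOCK and 159.6, 175.7 and 152.2 TPM in A549 Rec. Here A549 MOCK replicate 3 lay well below the other 5 libraries, and A549 Rec replicate 3 was closer to them.

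**Figure D1:**
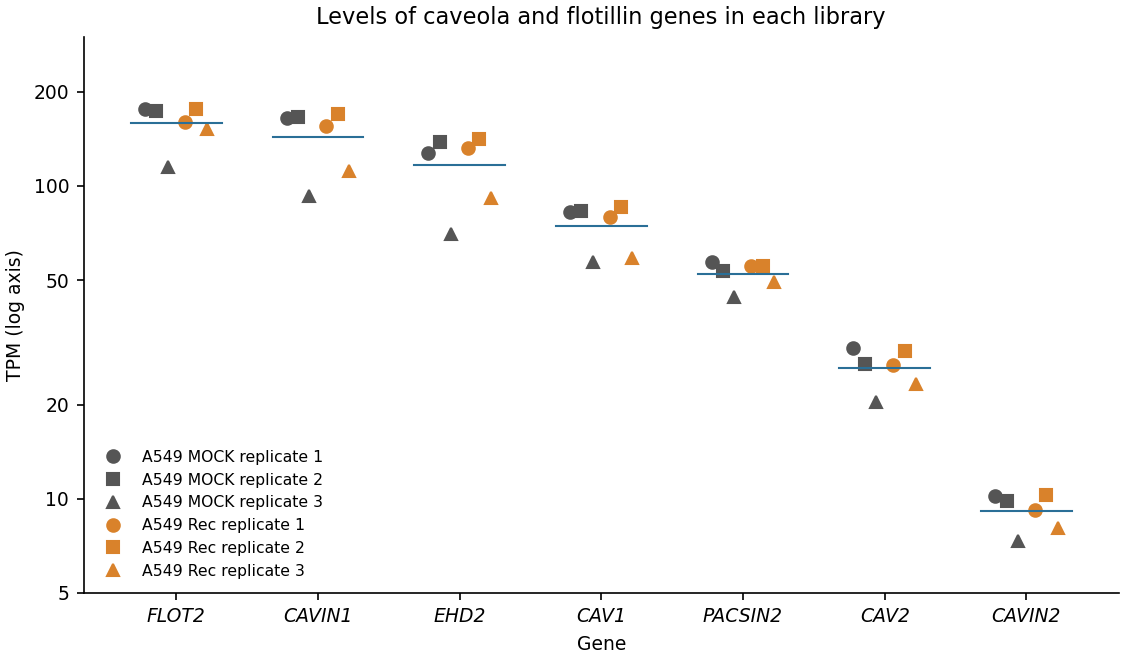
Level (TPM, log axis) of the 7 measured members in each of the 6 libraries. Grey points are A549 MOCK and orange points A549 Rec, the marker shape gives the replicate number, and the line is the mean of all 6, from 158.7 TPM for FLOT2 to 9.14 TPM for CAVIN2, with the triangles of replicate 3 lowest in both groups.

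Levels relative to CAV1 within a library do not depend on how the library was scaled. In replicates 1 and 2 of both groups, CAVIN1 was 1.96 to 2.01 times CAV1 and EHD2 1.54 to 1.67 times CAV1. In replicate 3, CAVIN1 was 1.62 times CAV1 in A549 MOCK and 1.90 times in A549 Rec, and EHD2 was 1.23 and 1.56 times CAV1. Both ratios were thus narrow in 4 libraries and lowest in A549 MOCK replicate 3. CAV2 stayed between 0.325 and 0.395 times CAV1, CAVIN2 between 0.115 and 0.137 times, and PACSIN2 between 0.642 and 0.840 times, with A549 Rec replicate 3 the highest library for all 3. FLOT2 was 2.01 to 2.13 times CAV1 in 5 libraries and 2.59 times in A549 Rec replicate 3. The ratio of CAVIN1 to EHD2 was 1.24 ± 0.06 (SD, n = 6). None of the 6 ratios to CAV1 separated A549 Rec from A549 MOCK (exact permutation p from 0.4 to 1 with n = 3 each, two-sided, adjusted p = 1 for each, smallest possible p 0.1).

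**Figure D2:**
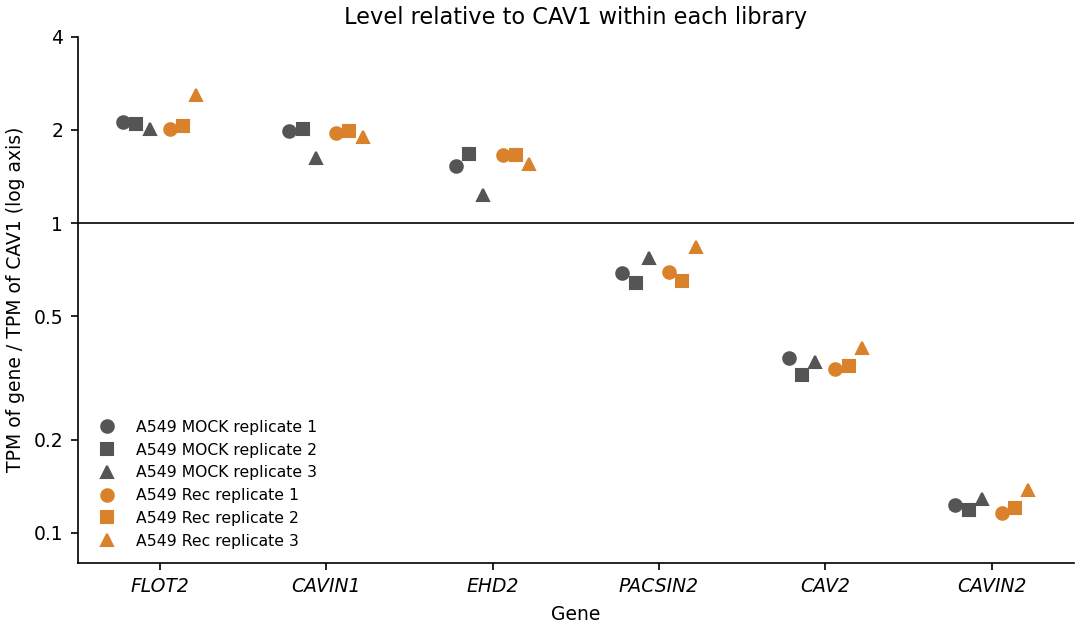
TPM of each member divided by the TPM of CAV1 in the same library (log axis), with the line at 1 marking equal levels. Symbols are as in the plot of levels, and the CAVIN1 and EHD2 ratios of A549 MOCK replicate 3, 1.62 and 1.23, lie below those of the other 5 libraries.

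A549 Rec was next compared with A549 MOCK. None of the 7 measured members passed in limma, which needed a change of 2-fold or more with an adjusted p under 0.05. Only 1 of the 17408 genes (0.00574%) did, so that a call was rare in this fit. The study called its genes with a count test, and its list was not compared here. No member had an unadjusted p under 0.05 in limma, where 2.06% of the genes did. The groups of 3 overlapped for all 7 members, and 5.16% of all tested genes had groups that did not overlap. The median log2 difference, A549 Rec minus A549 MOCK, was 0.06 for the 7 members and 0.02 for all tested genes. In bulk RNA, fewer cells with a transcript and less transcript per cell cannot be told apart.

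The CAV1 means of A549 MOCK and A549 Rec were 74.3 ± 14.9 and 74.5 ± 14.0 TPM (SD, n = 3). The log2 difference of 0.01 had a standard error of 0.20 (adjusted p = 0.9997 from limma), and its 95% interval of -0.47 to 0.48 corresponds to 0.722-fold to 1.40-fold. CAVIN1, at 141.3 ± 42.3 and 145.6 ± 30.1 TPM, had a log2 difference of 0.07 (95% interval -0.56 to 0.70). EHD2 had the largest log2 difference of the 7, 0.15 (95% interval -0.52 to 0.83), between 111.9 ± 36.5 and 121.7 ± 26.7 TPM. The other 4 members had log2 differences between 0.01 for CAVIN2 and 0.09 for FLOT2. Intervals for all 7 lay within -1 and 1, that is within a 2-fold change in either direction, at an adjusted p of 0.9997 each. An exact permutation test on TPM gave p between 0.6 and 1 (two-sided, smallest possible p 0.1). With same-numbered libraries as a block in limma, the CAV1 interval narrowed to -0.17 to 0.18 and the EHD2 interval to -0.08 to 0.39. The adjusted p was 0.9981 for each of the 7. Whether same-numbered libraries were prepared together is not given in the sources used here, so the narrower intervals rest on the label numbers.

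**Figure D3:**
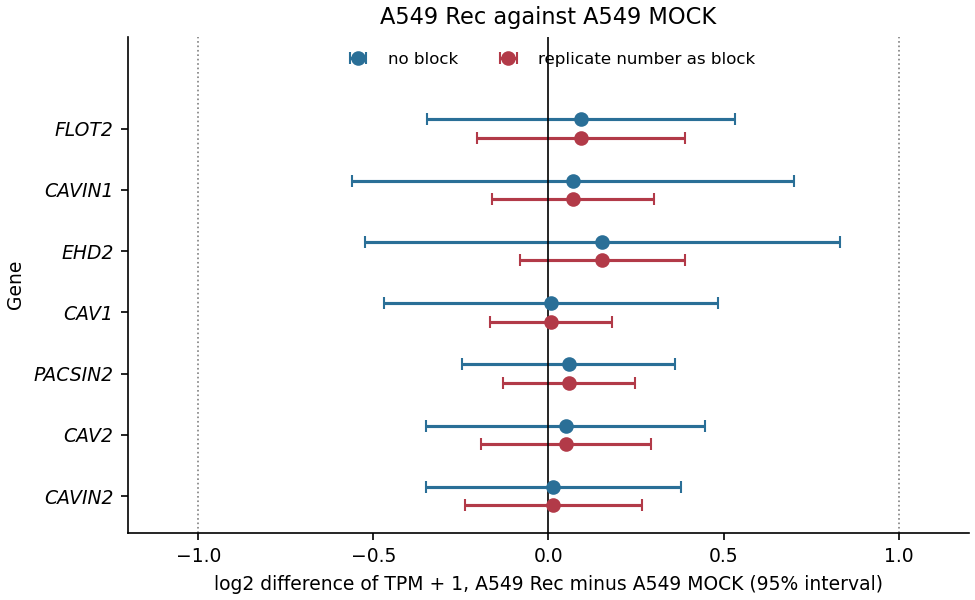
Log2 difference of TPM + 1, A549 Rec minus A549 MOCK (3 libraries each), with 95% intervals from limma without a block (blue) and with same-numbered libraries as a block (red). All intervals hold 0 and lie within the dotted lines at -1 and 1, which mark a 2-fold change.

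The labels number the replicates of each group, which allows the comparison of same-numbered libraries. In pair 1, A549 Rec was lower than A549 MOCK for 6 of the 7 members and higher for EHD2 alone. In pairs 2 and 3, A549 Rec was higher for all 7. Over all tested genes, A549 Rec was the higher library for 38% in pair 1, 56.8% in pair 2 and 62.8% in pair 3. On the deposited scale, most members thus followed the majority of the genes in each pair. After rescaling the libraries without mitochondrially encoded genes, A549 Rec was higher for 3, 4 and 5 of the 7 members in pairs 1, 2 and 3, and for 52.1, 47.2 and 39.7% of the tested genes. Ratios close to 1 bore on these counts, such as 1.003 and 1.001 for CAV1 in pairs 1 and 2 and 1.004 for PACSIN2 in pair 3. No direction of the members is therefore read from them.

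For CAV1, the ratio of A549 Rec to A549 MOCK was 0.959, 1.03 and 1.03 in pairs 1, 2 and 3, the narrowest span of the members. For CAV2 it was 0.886, 1.10 and 1.14, and for CAVIN1 0.944, 1.02 and 1.21. All pair 2 ratios lay between 1.01 and 1.10, whereas pair 3 held the highest ratios of the members, 1.32 for FLOT2 and 1.30 for EHD2. EHD2 was the only member higher in A549 Rec in 3 of 3 pairs (ratios 1.04, 1.02 and 1.30), for which the exact sign-flip p of 0.25 is the smallest that 3 pairs can give. On the scale without mitochondrially encoded genes, its ratios were 1.08, 0.997 and 1.17, and pair 2 was no longer above 1.

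The pattern that the members shared over the 6 libraries was a lower level in replicate 3. In both groups, both replicate 3 libraries lay below all 4 other libraries for 7 of the 7 measured members, as they did for 44% of all tested genes. EHD2 in replicate 3 was at 52.9% of the mean of replicates 1 and 2 in A549 MOCK and at 66.8% in A549 Rec. CAVIN1 was at 55.8% and 68.8%, CAV1 at 68.9% and 71.3%, and FLOT2 at 65.7% and 90.8%. PACSIN2 lay nearest to the other libraries in A549 MOCK, at 79.9%, and was at 89.1% in A549 Rec. This split of the libraries was made with earlier results of these data known, and it describes the libraries rather than a treatment. The adjusted p-values given for it below are therefore descriptive and do not test a grouping set in advance.

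With replicate 3 (yes or no) and group as terms in limma, the log2 difference of replicate 3 from replicates 1 and 2 was -0.74 for EHD2, -0.68 for CAVIN1 and -0.50 for CAV1, each at an adjusted p of 0.0107. CAV2 was at -0.37 (adjusted p = 0.0306 from limma) and PACSIN2 at -0.24 (adjusted p = 0.0460). With quantile normalization CAV2 was at -0.17 (adjusted p = 0.166 from limma), no longer under 0.05. PACSIN2 was then at 0.02 (0.826) and CAV1 at -0.23 (0.0446). On the deposited scale FLOT2 at -0.37 and CAVIN2 at -0.32 did not pass, with adjusted p of 0.0562 and 0.0519. Thus 5 of the 7 members were lower in replicate 3 at an adjusted p under 0.05, beside 24.8% of all tested genes, and none differed by 2-fold or more, beside 1.14%. The median log2 difference was -0.37 over the 7 members and -0.19 over all tested genes.

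As TPM sums to the same total in every library, the 34.5% and 26.9% of TPM on mitochondrially encoded genes in replicate 3 leave less for all other genes, and the levels were also rescaled without mitochondrially encoded genes. This moved the median of all tested genes from -0.19 to 0.08 and that of the 7 members from -0.37 to -0.08. On this scale EHD2 was at -0.45 (adjusted p = 0.0192 from limma), CAVIN1 at -0.39 (adjusted p = 0.0155) and CAV1 at -0.21 (adjusted p = 0.0473), so that 3 of the 7 members were lower in replicate 3, beside 4.3% of all genes tested on it. The other 4 did not pass, and lay between -0.08 for CAV2 and 0.05 for PACSIN2, the one member with a higher level. Both replicate 3 libraries lay below the other 4 for CAV1, CAV2, CAVIN1 and EHD2, as for 14.8% of all genes tested on this scale. EHD2 in replicate 3 was then at 69.0% and 77.4% of the mean of replicates 1 and 2 in A549 MOCK and A549 Rec, CAVIN1 at 72.8% and 79.8%, and CAV1 at 89.9% and 82.6%.

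Single libraries bore on these results, where a call or a pass means an adjusted p under 0.05 at any fold change. No member reached 2-fold in any of these fits. Without A549 MOCK replicate 3 and on the deposited scale, no member passed, with an adjusted p of 0.0646 for each of CAV1, CAVIN1 and EHD2, whose log2 differences were then -0.48, -0.53 and -0.58, and the log2 difference of FLOT2 was -0.14. PACSIN2 kept its call only when A549 Rec replicate 3 was the library left out, and CAV2 only when A549 Rec replicate 1 or replicate 3 was. FLOT2 passed without A549 Rec replicate 1 (adjusted p = 0.0376 from limma) or replicate 3 (0.0108). On the scale without mitochondrially encoded genes, CAV1 lost its call whichever library was left out (adjusted p between 0.0929 and 0.129), at log2 differences of -0.27 to -0.15, whereas CAVIN1 and EHD2 kept theirs without A549 Rec replicate 1 or replicate 3 and lost it without any of the other 4. The part of the mitochondrial share in these differences was not tested beyond this rescaling.

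**Figure D4:**
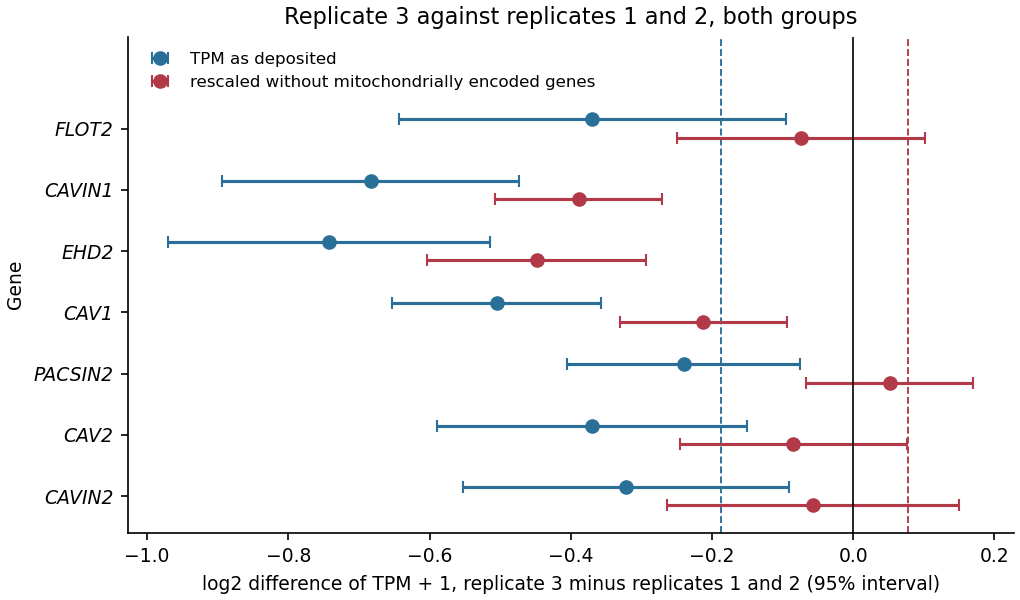
Log2 difference of TPM + 1, replicate 3 (2 libraries) minus replicates 1 and 2 (4 libraries), with 95% intervals from limma on the deposited TPM (blue) and after rescaling without mitochondrially encoded genes (red). Dashed lines are the medians of all tested genes, -0.19 and 0.08, and the EHD2, CAVIN1 and CAV1 intervals lie below them on both scales.

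The likeness of each member to CAV1 over the 6 libraries was measured by Pearson's r of log2(TPM + 1), which here rests on the gap between the replicate 3 libraries and the other 4 and is given as a description. It was 0.982 for CAVIN1, 0.967 for CAVIN2, 0.962 for EHD2, 0.936 for CAV2, 0.911 for PACSIN2 and 0.855 for FLOT2. Such values were common, since 4047 tested genes reached an r of at least 0.9 with CAV1. CAVIN1 stood highest, with 2.59% of the tested genes at least as like CAV1, and FLOT2 lowest, with 30.8%. Without mitochondrially encoded genes, r was 0.877 for CAVIN1, 0.813 for EHD2, 0.726 for CAVIN2, 0.547 for CAV2, 0.148 for FLOT2 and -0.75 for PACSIN2. In the same order, 3.46, 6.47, 11.2, 19.0, 34.1 and 85.5% of the genes tested on that scale were at least as like CAV1. Of the genes with a mean of at least 10 TPM, those most like CAV1 were PAF1 and DCAKD (r = 0.9994 each), COPA (0.9993), ZNF771 (0.9991) and PLCB3 (0.9986), all with their lowest levels in replicate 3.

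FLOT1 (ENSG00000137312), which codes for the partner of flotillin-2 in hetero-oligomers, was listed at 0 in all 6 libraries, while FLOT2 was the highest member. It lies on chromosome 6 (30727709 to 30742733, minus strand) within the major histocompatibility region. Of the 31 other protein-coding genes within 500 kb of it, 22 (71.0%) were also listed at 0 in all 6 libraries, beside 17.97% of all protein-coding genes, and the highest, IER3, had a mean of 2.28 TPM. Among those at 0 were TUBB, the gene of a beta-tubulin that most cells use, MRPS18B, which codes for a mitochondrial ribosomal protein, and ABCF1, a factor of translation. A listing at 0 can therefore not be read as the absence of FLOT1 RNA from these cells.

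The exons of each member were compared in stretches of 50 bases with the 430 sequences that the GRCh38 reference holds beside the chromosomes, 261 of them alternate. The other chromosomes were not searched. All 60 stretches of FLOT1 were found exactly on alternate versions of this part of chromosome 6, which number 7 in that reference. No stretch was found on any of these sequences for 8 of the other 9 members, and 2 of 117 were for CAV2. Whether the reference used for mapping held alternate sequences, and how reads with several positions were counted, is not given in the sources used here, and their part in the FLOT1 values was not tested.

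**Figure D5:**
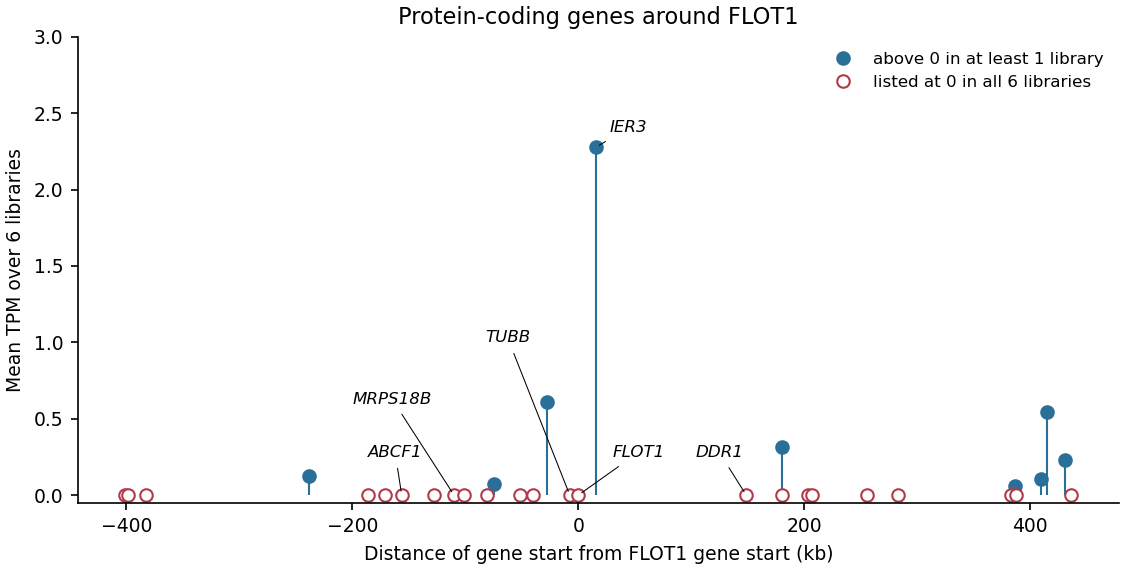
Mean TPM over the 6 libraries of FLOT1 and the 31 protein-coding genes within 500 kb, by the distance of their gene start from that of FLOT1 (kb). Open circles are genes listed at 0 in all 6 libraries, which are FLOT1 and 22 of its neighbours, and IER3 at 2.28 TPM is the highest.

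CAV3 (ENSG00000182533, chromosome 3, 8733800 to 8841808) was at 0 in all 6 libraries, and none of the 5 protein-coding genes within 500 kb of it was at 0 in all 6. The skeletal muscle markers ACTA1, MYH2, MYOD1 and MYOG were at 0 too, and 6 of the 7 muscle markers stayed below 1 TPM, the exception being MB at 5.09 TPM. Markers of endothelial cells, adipocytes and fibroblasts were low. All 7 endothelial markers were below 1 TPM in every library, with a summed level of 1.02 to 1.15 TPM in A549 MOCK and 0.625 to 0.787 TPM in A549 Rec. ADIPOQ, LEP and LPL of the 5 adipocyte markers were at 0, the summed level being 6.85 to 10.7 and 9.03 to 14.0 TPM, mostly CIDEC. COL1A2 of the 7 fibroblast markers was at 0, and COL1A1, at 4.00 TPM, was the one above 1 TPM.

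Other genes of membrane coats were counted in the same comparisons from fixed lists. In A549 Rec against A549 MOCK, no gene had an unadjusted p under 0.05 among 16 of 16 caveola coat and neck partners tested (median log2 difference 0.05), 7 of 9 SPFH domain relatives of flotillins (0.05), 20 of 21 clathrin coat and adaptor genes (0.08), 13 of 16 signalling partners of caveolin (0.05) and 4 of 7 neighbours of CAV1 and CAV2 at 7q31 (0.03). NOSTRIN, a trafficking protein of nitric oxide synthase, had the smallest p of the caveola partners, with a log2 difference of 0.49 (unadjusted p = 0.155, adjusted p = 0.9997 from limma) and levels of 1.25 to 3.17 TPM in A549 MOCK and 2.71 to 5.28 TPM in A549 Rec. PACSIN1, the neuronal relative of PACSIN2, followed at 0.28. STOM (stomatin) and ERLIN2, a protein of the endoplasmic reticulum, had 0.17 and 0.09. Of the clathrin genes, EPS15 and DAB2, both endocytic adaptors, had 0.17 and 0.14. HRAS, a small GTPase, had a log2 difference of 1.19 (unadjusted p = 0.169), which rested on A549 Rec replicate 1 at 30.8 TPM, the other 5 libraries being at 1.28 to 7.48 TPM. The kinase gene YES1 had 0.13, and TES and MET, which lie beside the caveolin genes, had 0.17 and 0.07.

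In replicate 3 against replicates 1 and 2, the genes lower at an adjusted p under 0.05 were 7 of 16 caveola partners, 5 of 7 SPFH relatives, 10 of 20 clathrin genes, 5 of 13 signalling partners and none of 4 genes at 7q31, beside the 24.8% of all tested genes. On the scale without mitochondrially encoded genes they were 1 caveola partner, the dynamin gene DNM1 at -0.29 (adjusted p = 0.0263 from limma), and the clathrin genes CLTA at -0.26 (0.0241) and AP2A1 at -0.21 (0.0370), beside 4.3% of all genes tested. STOM at 0.25 (0.0377) and MET at 0.17 (0.0432) were higher in replicate 3 on that scale. Of all 17383 genes tested on it, 1081 were higher and 748 lower at an adjusted p under 0.05, so a higher level was the more common call. MET, which lies near CAV1 and CAV2 on chromosome 7, thus had a log2 difference of the opposite sign to that of CAV1 on the rescaled values only.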

How the data were processed

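RNA-seq libraries of A549 MOCK (3) and A549 Rec (3) were analysed, grouped and numbered by their labels. Per the labels and the methods, the authors trimmed paired reads with Trimmomatic 0.38 after FastQC 0.11.7, mapped them with HISAT2 2.1.0 to GRCh38 and counted them with featureCounts 1.6.3. The labels also name a mouse build, whereas the gene identifiers and positions in the table are human, GRCh38. The annotation release, the strand setting and the treatment of reads with several positions are not given in the sources used here. The authors deposited TPM for 58676 genes, mitochondrial genes included, with a sum of 1000000 per library.

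Reads were recovered as whole multiples of a step per library, divided by a whole gene length, for all 29900 genes above 0. The tolerance was 0.01 reads, with 1e-06 of the reads added only for genes at their annotated length. For the members above 0 the length was searched. As lengths were searched to give whole reads, whole reads do not check the recovery, and floors cover counting error only. The depths of 15183490 to 18572167 reads put the level of 3 CAVIN3 reads at 0.310 to 0.368 TPM.

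Differences were tested in R 4.3.3 with limma 3.58.1 (lmFit, eBayes with trend) on log2(TPM + 1), a scale that understates changes of low genes. The 17408 genes that reached 1 TPM in 3 or more libraries were fitted, without a block. A call needed a Benjamini-Hochberg adjusted p under 0.05 over all tested genes and a fold change of at least 2. For single members in replicate 3 against replicates 1 and 2, a pass or a call meant the adjusted p alone, at any fold change. The code of the fit was tested on simulated data. Exact tests and tables used Python 3.11.15 with scipy 1.17.1 and numpy 2.4.6. Deviations from the group means correlated between same-numbered libraries of the 2 groups (0.115, 0.164 and 0.342 for replicates 1, 2 and 3). The shift shared by both replicate 3 libraries enters all 3 values, and differently numbered libraries were not compared. The correlations therefore cannot show that same-numbered libraries belong together. Pairs were taken from the numbers of the labels alone, and a fit with the replicate number as a block was made too. The planned permutation test of the correlation with CAV1 is not given, because the libraries fell into clusters of 4 and 2.

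The members and gene lists were chosen with earlier results of these data known. Named genes were the 10 members, RCVRN, up to 2 tested genes per list with the smallest unadjusted p in A549 Rec against A549 MOCK, and the 5 genes of at least 10 TPM with the highest r with CAV1. Markers, overlapping or neighbouring genes and those named for replicate 3 beyond that rule (DNM1, CLTA, AP2A1) were named after their values were seen. Alternatives were a pseudocount of 0.1, no filter, quantile normalization, rescaling without mitochondrially encoded genes, no trend, the block, other call rules and leaving out each library. Added after seeing the data were voom weights on recovered reads, leaving out both replicate 3 libraries, any fold change for replicate 3, and leaving out a library after rescaling.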

Additional observations from a re-analysis of the deposited data

How the results depend on the processing

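In A549 Rec against A549 MOCK, no alternative called a member, and the lowest adjusted p of any member was 0.927. The 1 gene called over all tested genes became 6 without a filter on low TPM, 6 without trend, 3 with the replicate block and voom weights, 2 without both replicate 3 libraries, 359 at an unadjusted p and any fold change, and 1 to 2 when 1 library was left out, 2 being without A549 Rec replicate 2. The replicate block alone kept the count at 1 and changed no call. It leaves each log2 difference as it was in this balanced design, with CAV1 at 0.0072. The small log2 differences of the members changed sign in 26 of 112 fits, and the cause was not tested. These 112 include the fits without a filter, without trend and with the block alone, in which the difference cannot change. CAV1 was at -0.031 with quantile normalization, -0.037 rescaled without mitochondrially encoded genes (with the block also -0.037), -0.013 with voom weights, -0.012 with voom weights and the block, and -0.0091 without both replicate 3 libraries, where CAV2 was at -0.019, CAVIN1 at -0.030, CAVIN2 at -0.038 and FLOT2 at -0.061. CAVIN2 was at -0.026 after rescaling (with the block also -0.026), and at -0.0002 and -0.0049 with voom weights without and with the block. Leaving out 1 library gave -0.17 to 0.17 for CAV1, -0.11 to 0.17 for CAV2, -0.21 to 0.25 for CAVIN1, -0.12 to 0.10 for CAVIN2, -0.15 to 0.35 for EHD2, -0.047 to 0.14 for PACSIN2 and -0.11 to 0.20 for FLOT2, the lowest value always being that without A549 MOCK replicate 3.

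In replicate 3 against replicates 1 and 2, 198 genes were called at 2-fold or more, 121 with quantile normalization, 4638 at any fold change (with 5 members), and 6 to 403 when 1 library was left out, the lowest without A549 MOCK replicate 3 and the highest without A549 Rec replicate 3. After rescaling, leaving out A549 MOCK replicate 1, 2 or 3 gave 44, 27 or 21 genes, and leaving out A549 Rec replicate 1, 2 or 3 gave 86, 42 or 313. With quantile normalization CAV2 no longer had an adjusted p under 0.05 (-0.17), and CAV1 was at -0.23. PACSIN2 turned positive with quantile normalization (0.019) and rescaling (0.052), and in the rescaled fits without A549 MOCK replicate 1, 2 or 3 (0.064, 0.038 and 0.045) or A549 Rec replicate 1, 2 or 3 (0.067, 0.039 and 0.059). FLOT2 was at 0.074 after rescaling without A549 MOCK replicate 3. With a pseudocount of 0.1, CAVIN2 passed (adjusted p = 0.0488 from limma). Among the members above 0, only CAVIN3 lay under the level of 3 reads, and the reason was not tested.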
